A study of Mus musculus with 28 samples.

Results

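Mammary tumours that arose in K8CREERT2/PIK3CA-H1047R/RosaYFP mice were compared with luminal cells of the same genotype sorted before tumours formed. The comparison took 9 of the 28 arrays of the series, chosen by sample title: 7 arrays of tumour cells, called K8 PIK tumours 1 to 7 here, and 2 arrays of YFP-positive luminal cells taken 8 weeks after tamoxifen, called pre-tumour luminal cells. Both groups carried the same alleles. K8CREERT2 is a Cre recombinase driven by the keratin 8 promoter and switched on by tamoxifen, so it acts in luminal cells of the gland. It turns on PIK3CA-H1047R, a mutant form of the catalytic subunit of PI3-kinase, together with the fluorescent reporter YFP. Female mice received 3 injections of 5 mg of tamoxifen from an age of 4 to 5 weeks. The labels give no time for the tumours and do not say whether tumour cells were sorted by YFP, so tumour state, age and time since tamoxifen cannot be told apart here. They also do not say that arrays came from separate animals. Each limma p-value therefore rests on the spread between samples within groups over all 28 arrays, which need not be a spread between animals.

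PI3-kinase makes a membrane lipid that recruits the kinase AKT, which promotes growth, glucose use and lipid synthesis and keeps FOXO transcription factors out of the nucleus. PIK3CA is among the most often mutated genes of human breast cancer. Luminal cells of the mammary gland express keratins 8 and 18 and include hormone-sensing cells and milk-producing alveolar progenitors, while the surrounding basal cells express keratins 5 and 14, p63 and contractile proteins.

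Values are log2 expression as deposited, with array medians between 4.40 and 4.48 in these 9 arrays. Across genes the tumours correlated with one another at 0.88 to 0.973, the pre-tumour arrays at 0.983, and tumours with pre-tumour arrays at 0.873 to 0.967. The median SD of a gene was 0.301 among the tumours and 0.144 between the pre-tumour arrays. Tumour 3 stood apart: its mean over 16 luminal identity genes was 8.09, against 9.53 to 10.38 in the other tumours and 10.47 and 10.44 in the pre-tumour cells.

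Against luminal markers, the pre-tumour cells had a luminal identity mean close to that of normal YFP luminal cells at 8 weeks (10.46), while tumour 3 lay below the mean of basal-gate cells of the same genotype. The other tumours lay above that basal-gate mean. Krt8 alone separated the gates by little on these arrays, at 11.23 and 11.42 in the basal-gate cells, against 11.98 and 12.09 in the pre-tumour cells. Fibroblast markers moved with the groups. Their mean was 6.77, 8.47, 8.39, 5.97, 5.22, 6.51 and 6.78 in tumours 1 to 7, against 5.28 and 5.05 in the pre-tumour cells (two-sided exact permutation p = 0.0833 over 36 arrangements). The basal-gate cells of the same genotype averaged 6.35, above tumours 4 and 5, so a higher mean need not stand for fibroblasts. All 11 of the fibroblast markers tested were higher in the tumours and none passed the test. Col1a1, the main chain of type I collagen, ran from 5.82 to 11.86 in the tumours with a median of 9.35, against 6.10 and 6.31 in the pre-tumour cells. Pdgfra, a receptor that marks fibroblasts, stayed between 3.23 and 4.56 in the tumours, against 3.25 and 3.82, near the level of dim probe sets. Immune marker means lay between 4.73 and 6.59 in the tumours, against 5.08 and 4.63 (exact permutation p = 0.278), and endothelial means between 4.53 and 5.65, against 5.65 and 4.97 (p = 0.472, same test). Markers of pericytes, adipocytes and erythroid cells differed with exact permutation p of 0.722, 0.278 and 0.972. In bulk samples more cells of a type and more RNA per cell cannot be told apart, and the part of fibroblasts in the results was not tested beyond the values given beside them.

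Of 13663 genes tested with limma, 114 rose (0.834% of the genes tested) and 227 fell (1.66%) in the tumours at an adjusted p under 0.05, together 2.5%. The largest rise was 3.84 and the largest fall -4.07 on the log2 scale, 165 of the called genes differed by over 2-fold and 32 by over 4-fold, and the median difference over all genes was 0.03. The arrays of the groups did not overlap for 900 genes higher in the tumours (6.59%) and 1159 lower (8.48%), and 108 of the genes that rose and 224 of those that fell were among them. With each array centred on its own median, the median of all genes moved to -0.08 and the calls to 99 rises and 517 falls, so rises made up 16.1% of the calls in place of 33.4%.

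The number of calls depended on the arrays fitted. Without pre-tumour replicate 2 no gene was called by limma (1235 at an unadjusted p under 0.05), without replicate 1 there were 26 calls, and a fit of the 9 compared arrays alone called none (1664 unadjusted, against 2570 or 18.8% in the fit of all 28 arrays, 8.34% higher and 10.5% lower). Leaving out tumours 1 to 7 in turn gave 379, 360, 392, 494, 338, 341 and 267 calls, and 215 of the 341 calls held under each of these 7 omissions. With the fibroblast marker mean of each array in the model, 37 genes were called, 23 of them among the 341. All 341 kept their sign when any single array was left out. For 108 of the rises and 224 of the falls the lack of overlap between the groups fixed this in advance.

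The 44 called genes named below were the 15 largest rises and 15 largest falls among called genes without overlap, and called members of gene lists. Of these, 40, 38, 42, 43, 41, 33 and 33 remained called without tumours 1 to 7 in turn, and 7 without pre-tumour replicate 1: Sema5a, Boc, Nr4a1, Tgfb3, Etv5, Insig1 and Cdkn2a. None was called without pre-tumour replicate 2, where their adjusted p ran from 0.174 to 0.512. The plot of the largest changes shows their value on each array.

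**Figure D1:**
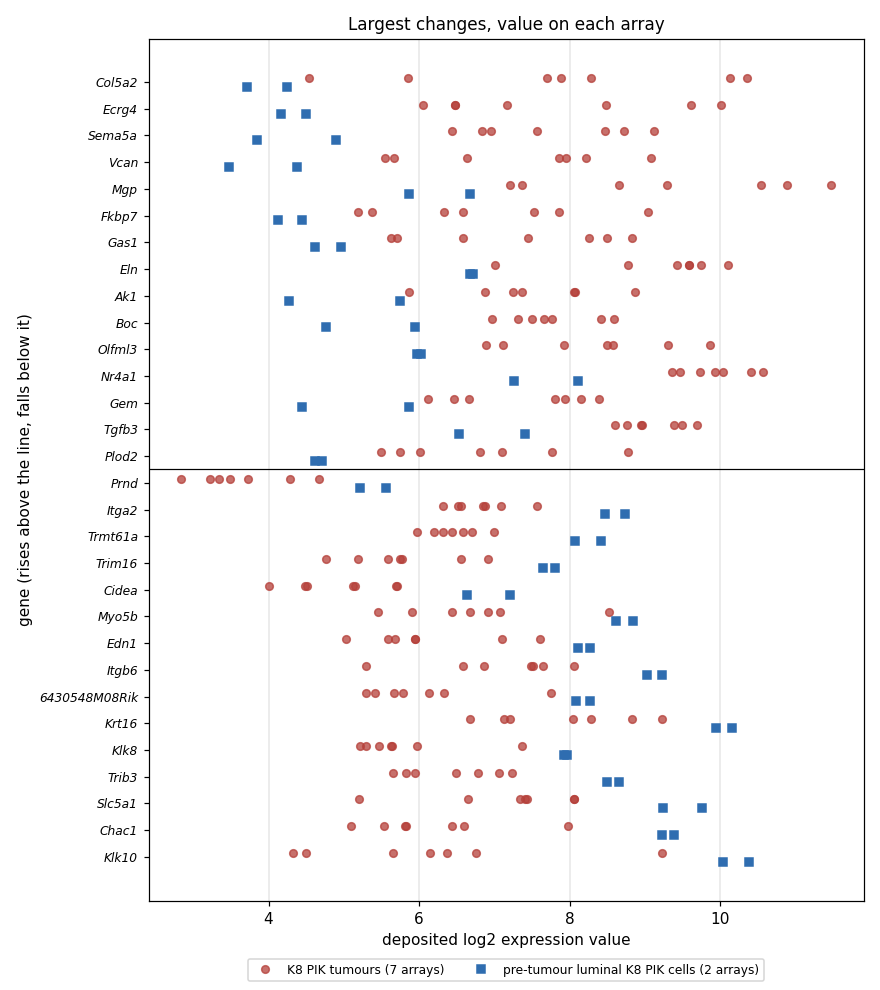
Deposited log2 expression value (horizontal axis) of the 15 largest rises, above the line, and the 15 largest falls, below it, among called genes whose arrays do not overlap. Each circle is 1 of 7 K8 PIK tumours and each square 1 of 2 pre-tumour luminal arrays, and in every row all circles lie on the same side of both squares, as the choice of these genes required.

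Several of the largest rises were of genes for extracellular matrix proteins. Col5a2, a chain of the fibre-forming type V collagen, lay at 4.53 to 10.35 in the tumours with a median of 7.88, against 4.25 and 3.71 in the pre-tumour cells. Every tumour was above both pre-tumour arrays, but tumour 5, at 4.53, by little, and pre-tumour replicate 2 sat among dim probe sets for Col5a2 and Vcan. The difference was 3.84 ± 0.99 (SE, n = 7 and 2, limma adjusted p = 0.0433). Vcan, the matrix proteoglycan versican, lay at 5.54 to 9.08 in the tumours (median 7.86), against 4.38 and 3.48 (3.35 ± 0.66, adjusted p = 0.0173). Mgp, matrix Gla protein, an inhibitor of calcification, lay at 7.21 to 11.47 (median 9.29), against 6.67 and 5.87 (3.08 ± 0.79, adjusted p = 0.0431). Eln, the elastic fibre protein elastin, lay at 8.78 to 10.10 in tumours other than tumour 5, which had 7.01, against 6.68 and 6.71 in the pre-tumour cells (2.48 ± 0.65, adjusted p = 0.0457).

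Mmp2, a protease that degrades basement membrane collagen, had the second largest rise of the named genes and the groups overlapped. It was at 9.37, 10.27, 9.97, 7.13, 5.13, 9.70 and 9.05 in tumours 1 to 7, against 5.59 and 4.56 in the pre-tumour cells (3.59 ± 0.89, adjusted p = 0.0389). Tumour 5 lay between the pre-tumour arrays. Among the other genes that rose, Plod2, which hydroxylates lysines for collagen cross-links, lay at 5.49 to 8.77 in the tumours, against 4.71 and 4.61 (2.16 ± 0.55, adjusted p = 0.0421), and Fkbp7, a folding enzyme of the endoplasmic reticulum, at 5.19 to 9.04, against 4.44 and 4.13 (2.56 ± 0.68, adjusted p = 0.0488). Olfml3, a secreted glycoprotein, lay at 6.89 to 9.86 in the tumours, against 6.03 and 5.97 (2.31 ± 0.56, adjusted p = 0.0355). Gas1, a membrane-anchored protein that binds Hedgehog ligands, lay at 5.62 to 8.83, against 4.96 and 4.61 (2.49 ± 0.64, adjusted p = 0.0421). None of these 4 genes overlapped between the groups, as their choice among the largest rises required.

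The plot against the fibroblast marker mean shows where each tumour stood for matrix genes and markers. Tumours 2 and 3, with the highest marker means, had the highest Col5a2 (10.13 and 10.35), Mgp (10.89 and 11.47) and Vcan (8.22 and 9.08). Tumour 5, whose marker mean of 5.22 lay within the pre-tumour range, had the lowest Col5a2, Mmp2, Vcan and Eln. With the marker mean in the model the difference was 1.20 for Col5a2 (adjusted p = 0.155), 1.59 for Mmp2 (0.261), 1.81 for Vcan (0.0756), 1.34 for Mgp (0.307) and 1.48 for Eln (0.30). In K8-targeted basal-gate cells of the same genotype the marker mean was 6.35. These cells averaged 6.97 for Col5a2, 9.82 for Mmp2, 7.75 for Vcan, 9.16 for Mgp and 10.12 for Eln. Whether the marker mean also carries basal identity was not tested. The adjusted p of Col5a2 without tumours 1, 2, 6 or 7 ran from 0.0511 to 0.0553, that of Mmp2 without tumour 6 or 7 was 0.0518 and 0.053, and that of Mgp without tumour 2 or 6 was 0.0545 and 0.0578. Eln lost its call without tumour 1, 2, 3, 6 or 7 (0.0539 to 0.0648), Fkbp7 without 2, 6 or 7 (0.0576 to 0.0644), Gas1 without 1, 6 or 7 (0.0504 to 0.0581) and Plod2 without 2 or 6 (0.0534 and 0.0548).

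**Figure D2:**
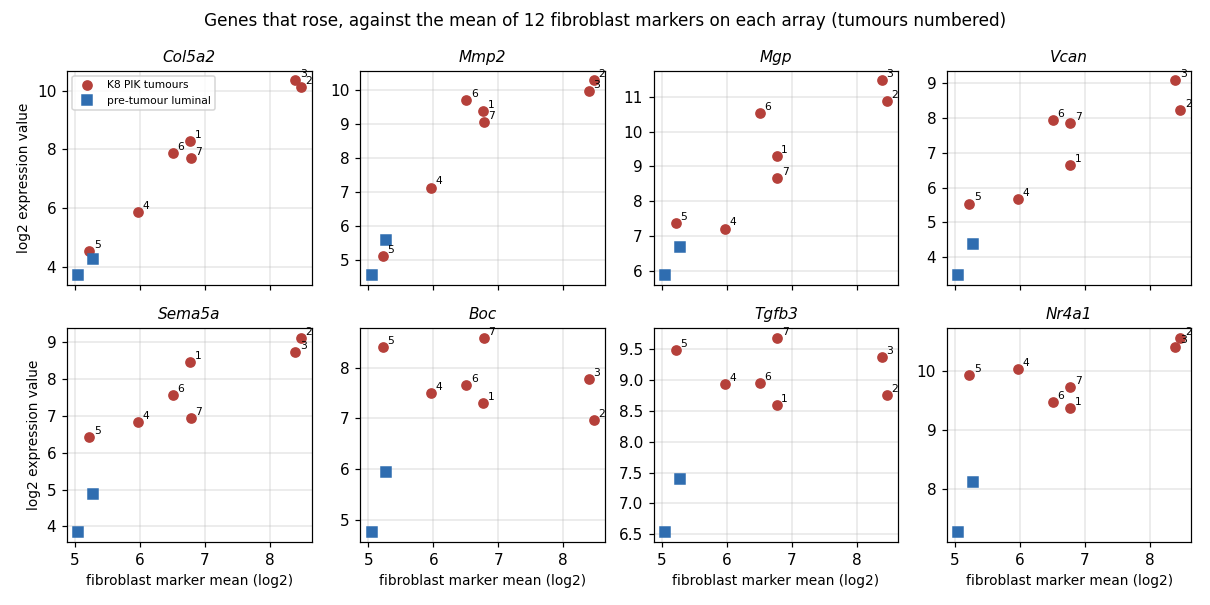
Log2 value of 8 genes that rose (vertical axes) against the mean of the 12 fibroblast markers on each array (horizontal axes, log2). Circles are K8 PIK tumours with their number and squares are pre-tumour luminal arrays; for Col5a2 and Mmp2 tumour 5 lies beside the squares, while for Boc, Tgfb3 and Nr4a1 it stands well above them.

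Other genes that rose stood clear of the pre-tumour cells in tumour 5 too. Sema5a, a membrane semaphorin first known from axon guidance, was at 8.47, 9.12, 8.72, 6.83, 6.43, 7.56 and 6.95 in tumours 1 to 7, against 4.89 and 3.84 in the pre-tumour cells, the latter among dim probe sets. Its difference was 3.36 ± 0.53 (adjusted p = 0.00861) and 2.15 with the fibroblast marker mean in the model (adjusted p = 0.0371). Boc, a surface co-receptor for Hedgehog ligands, was at 7.31, 6.97, 7.77, 7.50, 8.41, 7.66 and 8.59, against 5.94 and 4.76. The difference of 2.40 ± 0.37 (adjusted p = 0.00861) was 2.60 with the marker mean (adjusted p = 0.0371). Tgfb3, a secreted ligand of the TGF-beta family, lay at 8.60 to 9.69 in the tumours with a median of 8.96, against 7.40 and 6.53, and tumour 5 had 9.49. It was the only 1 of 17 TGF-beta, activin and BMP genes tested that passed (2.16 ± 0.40, adjusted p = 0.0126), where 0.834% of all genes tested rose. The difference of Tgfb3 was 2.20 with the marker mean (adjusted p = 0.0531). Id1, a transcriptional inhibitor induced by BMP signals, differed by 0.97 ± 0.30 (adjusted p = 0.0923).

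Ecrg4, which encodes a secreted peptide precursor, lay at 6.05 to 10.01 in the tumours (median 7.17), against 4.49 and 4.16 in the pre-tumour cells (3.43 ± 0.76, adjusted p = 0.027). Tumours 6 and 7 had the highest values, 10.01 and 9.61, followed by tumour 2, with the highest fibroblast marker mean, at 8.48. With that mean in the model Ecrg4 was not called. Ak1, the cytosolic adenylate kinase, lay at 5.86 to 8.87, against 5.75 and 4.27 (2.47 ± 0.57, adjusted p = 0.0295). Gem, a small GTP-binding protein that restrains calcium channels, lay at 6.12 to 8.39, against 5.86 and 4.44 (2.21 ± 0.50, adjusted p = 0.0295). The lowest tumour exceeded the higher pre-tumour array by little for both genes.

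Immediate early and ERK-responsive genes were next considered, since they respond to growth factors and to tissue digestion, which all these cells underwent before sorting. Of 12 immediate early and dissociation genes tested, 11 were higher in the tumours and 3 rose, where 0.834% of all genes tested rose. The list median was 0.66, against 0.03 over all genes. Nr4a1, an orphan nuclear receptor induced within minutes of a stimulus, was at 9.36, 10.56, 10.41, 10.03, 9.93, 9.47 and 9.73 in tumours 1 to 7, against 8.11 and 7.26 in the pre-tumour cells. The tumours were well apart from the pre-tumour arrays and close to one another (2.25 ± 0.40, adjusted p = 0.0106). Fos, an AP-1 subunit, lay at 10.55 to 11.90, against 10.10 and 10.19 (1.16 ± 0.27, adjusted p = 0.0297). Hspa1b, an inducible HSP70 chaperone, lay at 10.04 to 11.09, against 9.43 and 9.81 (1.06 ± 0.24, adjusted p = 0.0275). Fosb and Atf3 differed by 0.65 ± 0.18 and 0.89 ± 0.25 with adjusted p of 0.0609 and 0.0592.

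Among 13 ERK feedback and target genes tested, 2 rose and 1 fell, where 0.834% of all genes tested rose and 1.66% fell. The list median was 0.09. Etv5, an ETS transcription factor induced by receptor tyrosine kinase signals, had the lowest adjusted p of all genes tested. It was at 6.22, 6.41, 6.43, 5.37, 5.72, 6.28 and 5.60 in tumours 1 to 7, against 4.27 and 3.84 in the pre-tumour cells (1.95 ± 0.26, adjusted p = 0.00415). Pre-tumour replicate 2 sat among dim probe sets for Etv5. Normal YFP luminal cells at 8 weeks had 4.81 and 5.08, above both pre-tumour arrays and below all tumours. Dusp6, the phosphatase that turns ERK off, lay at 7.83 to 8.96, against 7.44 and 6.72 (1.23 ± 0.27, adjusted p = 0.0265). Fosl1, an AP-1 subunit, moved the other way, with 9.19 to 10.22 in the tumours, against 10.76 and 10.49 (-1.02 ± 0.23, adjusted p = 0.0284). Of the EGF receptor family and its ligands, 10 genes were tested and none passed. The ligand Tgfa lay at 5.73 to 8.23 in the tumours, below both pre-tumour values of 8.83 and 8.43 (-1.70 ± 0.49, adjusted p = 0.0652).

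Of 16 genes in the PI3-kinase and AKT list none was called, and their median was 0.05. Outside the list, and chosen after its values were seen, the regulatory subunit gene Pik3r2 rose, with a mean of 5.70 in the tumours, against 4.63 in the pre-tumour cells (1.07 ± 0.26, adjusted p = 0.0365). Mouse Pik3ca lay at 7.26 to 7.86 in the tumours, against 7.66 and 7.77 in the pre-tumour cells (-0.21 ± 0.14, adjusted p = 0.448), and it is not known here whether the probe set also reads the transgene. Irs1, the adaptor that links insulin receptors to PI3-kinase, lay at 5.85 to 7.22, against 5.28 and 5.19, without overlap (1.22 ± 0.33, adjusted p = 0.0552). Pik3r3, a regulatory subunit, lay at 7.09 to 7.87, against 6.31 and 6.55 (1.03 ± 0.32, adjusted p = 0.0857).

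Of 17 genes that FOXO factors induce, 2 rose, where 0.834% of all genes tested rose, and the median was 0.13. Sesn3, a sestrin that restrains mTORC1, lay at 6.88 to 8.11 in the tumours, against 6.07 and 6.22 (1.13 ± 0.29, adjusted p = 0.0434, and 0.0537 without tumour 1). Cdkn1b, the cell cycle inhibitor p27, lay at 8.20 to 8.98, against 8.05 and 7.53 (0.86 ± 0.21, adjusted p = 0.0345).

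Metabolic targets of the pathway showed single genes that rose. Insig1, which holds the sterol sensor SCAP in the endoplasmic reticulum, was at 7.94, 8.77, 8.57, 7.85, 8.77, 8.60 and 9.78 in tumours 1 to 7, against 7.36 and 6.11 (1.88 ± 0.39, adjusted p = 0.0196). All tumours were above both pre-tumour arrays, which themselves differed. Elovl6, a fatty acid elongase, lay at 6.72 to 7.63, against 6.23 and 6.03 (1.13 ± 0.27, adjusted p = 0.0361, and 0.0502 without tumour 7). These were 2 of 15 sterol and fatty acid synthesis genes tested, whose median was 0.47, where 0.834% of all genes tested rose. Fasn, the fatty acid synthase, differed by 0.62 ± 0.17 (adjusted p = 0.0556). Of 13 glycolysis genes tested, Pfkl, the liver form of phosphofructokinase, was the only 1 that passed, with 9.84 to 10.66 in the tumours, against 8.94 and 9.38 (1.02 ± 0.20, adjusted p = 0.0181), and the list median was 0.15. Of 12 hypoxia genes tested none passed and the median was 0.08; Bnip3, a mitochondrial protein induced by low oxygen, had a median of 7.60 in the tumours and a lowest value of 6.31, against 5.87 and 5.66 (1.78 ± 0.52, adjusted p = 0.0689).

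No gene of the DNA replication and mitosis lists passed the test. Mki67, a marker of cycling cells, was at 8.01, 7.03, 7.57, 5.35, 5.72, 5.76 and 5.21 in tumours 1 to 7, against 4.24 and 6.38 in the pre-tumour cells. Tumours 1 to 3 were above both pre-tumour arrays, which differed from each other by more than tumours 4 to 7 did (1.07 ± 0.65, adjusted p = 0.392). All 18 mitosis genes and all 16 DNA replication genes tested were higher on average in the tumours, with medians of 0.49 and 0.53, and none of either list was called. Without one or another single array the mitosis median ran from -0.13 to 1.22, and with the fibroblast marker mean in the model it was -0.02.

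Cell cycle inhibitors were higher in 8 of 10 genes tested, with a median of 0.81, and 2 rose, where 0.834% of all genes tested rose. The 2 were Cdkn1b, above, and Cdkn2a, which encodes p16 and p19ARF. Cdkn2a lay at 4.28 to 4.81 in the tumours, against 4.00 and 3.43 (0.82 ± 0.18, adjusted p = 0.0262), close to the dim end of the arrays. In the K8 PIK p53-deleted tumours the same probe set was at 7.87 and 7.92. Cdkn2c and Cdkn2b, further CDK4 and CDK6 inhibitors, differed by 0.93 ± 0.27 and 1.11 ± 0.36 (adjusted p = 0.072 and 0.0957). Bbc3, which encodes the death-promoting protein PUMA, lay at 6.67 to 7.25, against 6.25 and 6.42 (0.60 ± 0.16, adjusted p = 0.0446, and 0.0522 to 0.0554 without tumour 3, 4, 6 or 7). It was the only 1 of 15 p53 target genes tested that was called, and the median of that list was 0.01.

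The largest fall was that of Klk10, and Klk8 and Krt16 were also among the 15 largest. Klk10, a secreted serine protease of the kallikrein family, was at 9.22, 6.37, 4.32, 6.76, 4.50, 6.14 and 5.65 in tumours 1 to 7, against 10.03 and 10.38 in the pre-tumour cells. The tumours spread over a wide range, all of it below the pre-tumour arrays (-4.07 ± 0.86, adjusted p = 0.0226). Klk8, another kallikrein, was at 7.36 in tumour 1 and 5.21 to 5.97 in the other tumours, against 7.92 and 7.96 (-2.15 ± 0.55, adjusted p = 0.0433, and 0.0557 to 0.0619 without tumour 2, 5, 6 or 7). Krt16, a keratin of stressed and hyperproliferative epithelium, lay at 6.67 to 9.22, against 10.16 and 9.94 (-2.14 ± 0.56, adjusted p = 0.0442, and 0.0547 to 0.0625 without tumour 5, 6 or 7). It was the only 1 of 18 squamous and stress keratinisation genes tested that was called, where 1.66% of all genes tested fell. The list median was -0.17.

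A pair of integrin genes, a glucose transporter and a myosin also fell. Itga2, the alpha 2 integrin that binds collagen, lay at 6.31 to 7.56 in the tumours, against 8.73 and 8.47 (-1.78 ± 0.41, adjusted p = 0.0302). Itgb6, the epithelial beta 6 integrin that activates latent TGF-beta, lay at 5.29 to 8.06, against 9.22 and 9.03 (-2.06 ± 0.51, adjusted p = 0.038, and 0.0509 without tumour 6). Slc5a1, the sodium-coupled glucose transporter SGLT1, lay at 5.20 to 8.06, against 9.24 and 9.75 (-2.33 ± 0.56, adjusted p = 0.0346). Myo5b, a motor of apical vesicle recycling, reached 8.52 in tumour 2 and 5.45 to 7.07 elsewhere, against 8.61 and 8.84 (-2.01 ± 0.51, adjusted p = 0.0401, and 0.0521 and 0.0553 without tumour 5 or 7). Tumour 3 had the lowest Itga2, Itgb6, Slc5a1 and Myo5b of the tumours.

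Further falls had varied roles. Edn1, the vasoactive peptide endothelin 1, lay at 5.03 to 7.61 in the tumours, against 8.11 and 8.27 (-2.06 ± 0.49, adjusted p = 0.0336). Cidea, a lipid droplet protein, lay at 4.00 to 5.71, against 7.20 and 6.63 (-1.96 ± 0.45, adjusted p = 0.0297). Trim16, a ubiquitin ligase of the tripartite motif family, lay at 4.76 to 6.91, against 7.81 and 7.65 (-1.94 ± 0.42, adjusted p = 0.0262). Trmt61a, the catalytic subunit of a tRNA methyltransferase, had the lowest adjusted p of the named falls, with 5.97 to 6.99 in the tumours, against 8.42 and 8.07 (-1.79 ± 0.30, adjusted p = 0.00928). Prnd, a relative of the prion protein, lay at 2.84 to 4.67, against 5.22 and 5.56 (-1.74 ± 0.36, adjusted p = 0.0196), with most tumours among dim probe sets, so that the size of its difference is uncertain. The gene 6430548M08Rik lay at 5.30 to 7.75, against 8.27 and 8.08 (-2.12 ± 0.47, adjusted p = 0.0271). Rspo1, a secreted enhancer of Wnt signalling, lay at 3.09 to 4.23, against 4.59 and 4.43 (-1.04 ± 0.23, adjusted p = 0.0242). It was the only 1 called of 18 Wnt pathway genes and of 10 luminal progenitor genes tested, where 1.66% of all genes fell. The tumour values of Rspo1 sit among dim probe sets.

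Chac1 and Trib3 are genes that the transcription factor ATF4 induces when amino acids are short or proteins misfold. Chac1 encodes an enzyme that degrades glutathione and Trib3 a pseudokinase that inhibits AKT. Part of their RefSeq promoters (build GRCm38.p6) is shown because both hold an element of the type ATF4 binds, in capitals, searched as TGATGNAA on both strands.
Chac1, chr2:119351003-119351102, plus strand: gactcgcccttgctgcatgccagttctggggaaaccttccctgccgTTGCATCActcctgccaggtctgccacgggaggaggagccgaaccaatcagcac
Trib3, chr2:152344028-152344057, minus strand: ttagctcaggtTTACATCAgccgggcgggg
In both the match is on the opposite strand, and it starts 193 bases before the gene start in Chac1 and 14 bases after it in Trib3. The element was present in 1304 of 32851 promoter windows of 300 bases (3.97%), in 316 of 10923 tested genes with a promoter (2.89%), in 10 of 193 genes that fell (5.18%), and in 0 of 92 genes that rose. A match is a description of the letters and not evidence of binding.

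Chac1 was at 5.10, 7.98, 5.81, 6.44, 5.82, 6.59 and 5.53 in tumours 1 to 7, against 9.39 and 9.23 in the pre-tumour cells. Tumour 2 was the highest tumour and still below both pre-tumour arrays (-3.13 ± 0.74, adjusted p = 0.0321). Trib3 was at 7.06, 7.23, 5.95, 6.49, 5.83, 6.78 and 5.65, against 8.49 and 8.66 (-2.15 ± 0.53, adjusted p = 0.0366, and 0.0513 without tumour 7). The lack of overlap in both genes was required by their choice among the largest falls. With the fibroblast marker mean in the model the differences were -3.90 for Chac1 (adjusted p = 0.048) and -2.45 for Trib3 (adjusted p = 0.0756). Normal YFP luminal cells of K8CREERT2/RosaYFP mice had 8.65 and 9.25 for Chac1 at 8 weeks and 9.72 and 9.74 at 10 months, as high as in the pre-tumour cells.

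The identity of the cells was then followed from normal YFP luminal cells over pre-tumour cells to tumours, all K8-targeted, as the plot of lineage genes shows. Both basal keratins lay higher in the pre-tumour arrays than in the normal arrays without passing the test, and the tumours overlapped with the pre-tumour cells. Krt5 was at 7.45 and 8.09 in YFP luminal cells at 8 weeks and at 11.16 and 9.99 in pre-tumour cells. The tumours ran from 6.86 to 11.94 with a median of 10.72 (-0.63 ± 0.81 against pre-tumour cells, adjusted p = 0.717). Krt14 was at 8.39 and 8.46 in YFP cells, 11.18 and 10.05 in pre-tumour cells and 7.99 to 11.46 in tumours (-1.07 ± 0.61, adjusted p = 0.356). The step from YFP to pre-tumour cells gave 2.81 ± 1.01 for Krt5 and 2.19 ± 0.76 for Krt14, with adjusted p of 0.821 and 0.78.

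Trp63, which encodes the basal transcription factor p63, was at 5.12 and 5.61 in YFP cells, 6.97 and 6.17 in pre-tumour cells and 5.54 to 9.15 in tumours (0.83 ± 0.68, adjusted p = 0.534). Acta2, smooth muscle actin, which basal cells and activated fibroblasts share, lay at 6.94 and 8.76, then 8.03 and 6.88, then 7.43 to 11.17, with 6 of 7 tumours above both pre-tumour arrays (2.20 ± 0.71, adjusted p = 0.0991). The contractile genes Myl9 and Mylk differed by 2.20 ± 0.76 and 2.02 ± 0.73 (adjusted p = 0.123 and 0.139). Of 17 basal and myoepithelial genes tested none passed, and the median was 0.33.

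**Figure D3:**
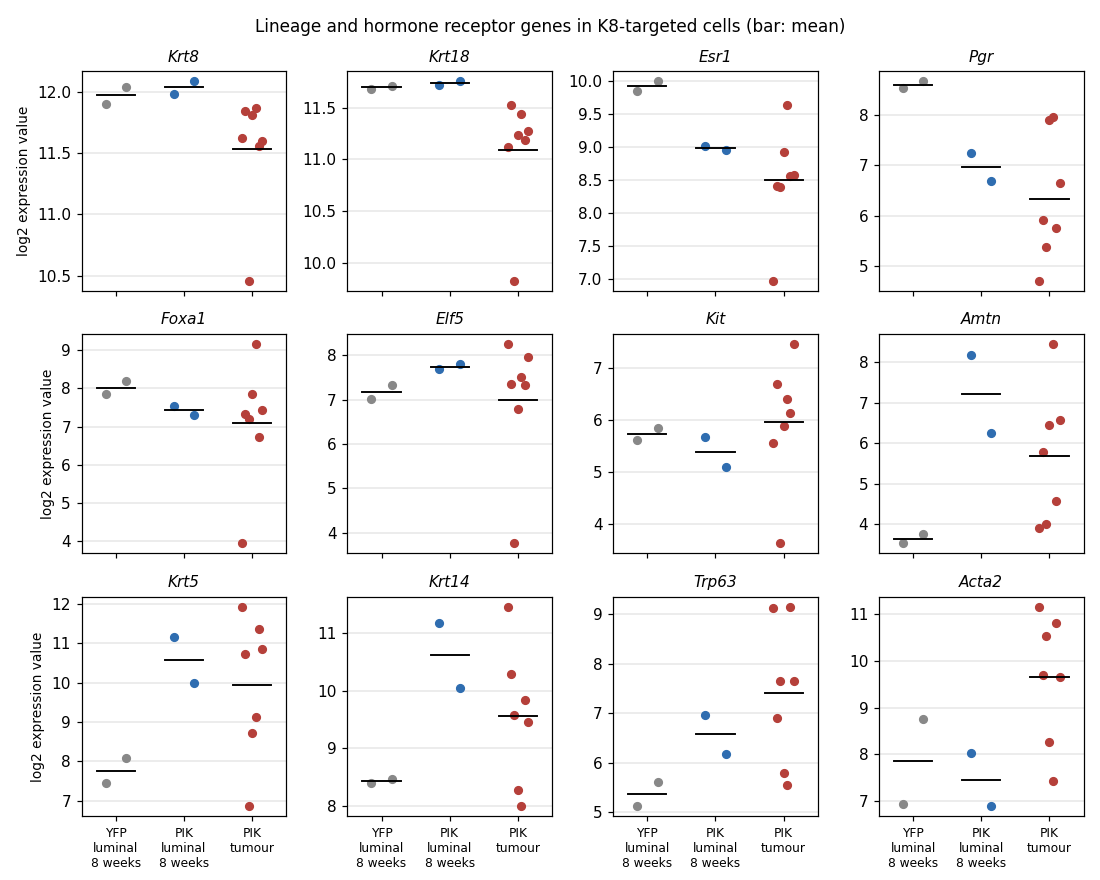
Log2 expression value (vertical axes) of 12 lineage and hormone receptor genes in normal YFP luminal cells at 8 weeks (grey, 2 arrays), pre-tumour PIK luminal cells at 8 weeks (blue, 2 arrays) and K8 PIK tumours (red, 7 arrays), with bars at the group means. The tumours spread more widely than either sorted group, and tumour 3 supplies the lowest Krt8, Krt18, Elf5, Kit and Krt5 values.

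Luminal genes were lower on average without passing the test. Krt8 was at 11.62, 11.84, 10.46, 11.81, 11.87, 11.56 and 11.60 in tumours 1 to 7, against 11.98 and 12.09 in the pre-tumour cells, all tumours below both (-0.50 ± 0.24, adjusted p = 0.273). Krt18 lay at 9.83 to 11.53, against 11.72 and 11.76, also without overlap (-0.65 ± 0.30, adjusted p = 0.256). Of 16 luminal identity genes tested 15 were lower, none was called, and the median was -0.73. Epcam, an epithelial adhesion molecule, lay at 8.08 to 11.31, against 11.53 and 11.57 (-1.03 ± 0.50, adjusted p = 0.273). The lowest value of each of Krt8, Krt18 and Elf5 was that of tumour 3.

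Hormone receptors and progenitor genes spread widely among the tumours. Esr1, the oestrogen receptor, was at 9.85 and 10.01 in YFP cells, 9.02 and 8.96 in pre-tumour cells and 6.98 to 9.64 in tumours (-0.48 ± 0.43, adjusted p = 0.572). Pgr, the progesterone receptor, lay at 8.53 and 8.68, then 7.24 and 6.68, then 4.71 to 7.95 (-0.63 ± 0.72, adjusted p = 0.674). Foxa1, which opens chromatin for the oestrogen receptor, ran from 3.94 in tumour 1 to 9.17 in tumour 5, against 7.55 and 7.30 in pre-tumour cells (-0.33 ± 0.80, adjusted p = 0.856, and 0.19 without tumour 1). Elf5, the alveolar transcription factor, was at 3.76 in tumour 3 and 6.79 to 8.26 in the others, against 7.68 and 7.79 (-0.74 ± 0.70, adjusted p = 0.606). Kit, a receptor tyrosine kinase of progenitors, lay at 3.63 to 7.46, against 5.67 and 5.09 (0.59 ± 0.57, adjusted p = 0.62).

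Amtn, the gene of the enamel protein amelotin, was at 3.53 and 3.77 in YFP cells and 8.16 and 6.24 in pre-tumour cells. The tumours had 3.90, 5.79, 4.02, 6.45, 8.45, 4.57 and 6.56, so tumours 1 and 3 were near the YFP level and tumour 5 above both pre-tumour arrays (-1.52 ± 0.83, adjusted p = 0.328). Milk genes had the lowest list median, -1.21 over 12 genes tested, and none was called. Csn2, beta-casein, ran from 2.88 to 10.46 in the tumours with a median of 6.52, against 9.52 and 10.30 (-3.41 ± 1.49, adjusted p = 0.22).

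Of 17 genes in the cell junction list 15 were lower, none was called and the median was -0.82. Outside the list, and chosen after its values were seen, the claudin gene Cldn12 fell, with a mean of 7.09 in the tumours, against 8.44 (-1.35 ± 0.28, adjusted p = 0.0196). Vezt, of adherens junctions, chosen likewise, fell as well (-1.19 ± 0.23, adjusted p = 0.0153). Cldn1, a tight junction claudin, lay at 4.51 to 9.30, against 9.57 and 9.78 (-2.03 ± 0.80, adjusted p = 0.179), and Cdh1, E-cadherin, at 4.91 to 9.21, against 9.55 and 9.10 (-1.27 ± 0.67, adjusted p = 0.314). Of 14 mesenchymal transition genes tested 13 were higher and none was called, with a median of 1.22 that was -0.05 with the fibroblast marker mean in the model. Fn1, fibronectin, lay at 5.48 to 11.31, against 4.28 and 5.21, without overlap (3.12 ± 0.99, adjusted p = 0.0944), and Vim, vimentin, at 7.41 to 11.61, against 7.46 and 7.11 (2.13 ± 0.71, adjusted p = 0.111). Among 15 matrix proteases and inhibitors tested Mmp2 was the only gene called, where 0.834% of all genes tested rose. The list median of 0.82 was -0.22 with the marker mean. Plaur, the urokinase receptor, lay at 9.15 to 10.26, below both pre-tumour values of 10.98 and 10.80 (-1.12 ± 0.31, adjusted p = 0.0558).

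**Figure D4:**
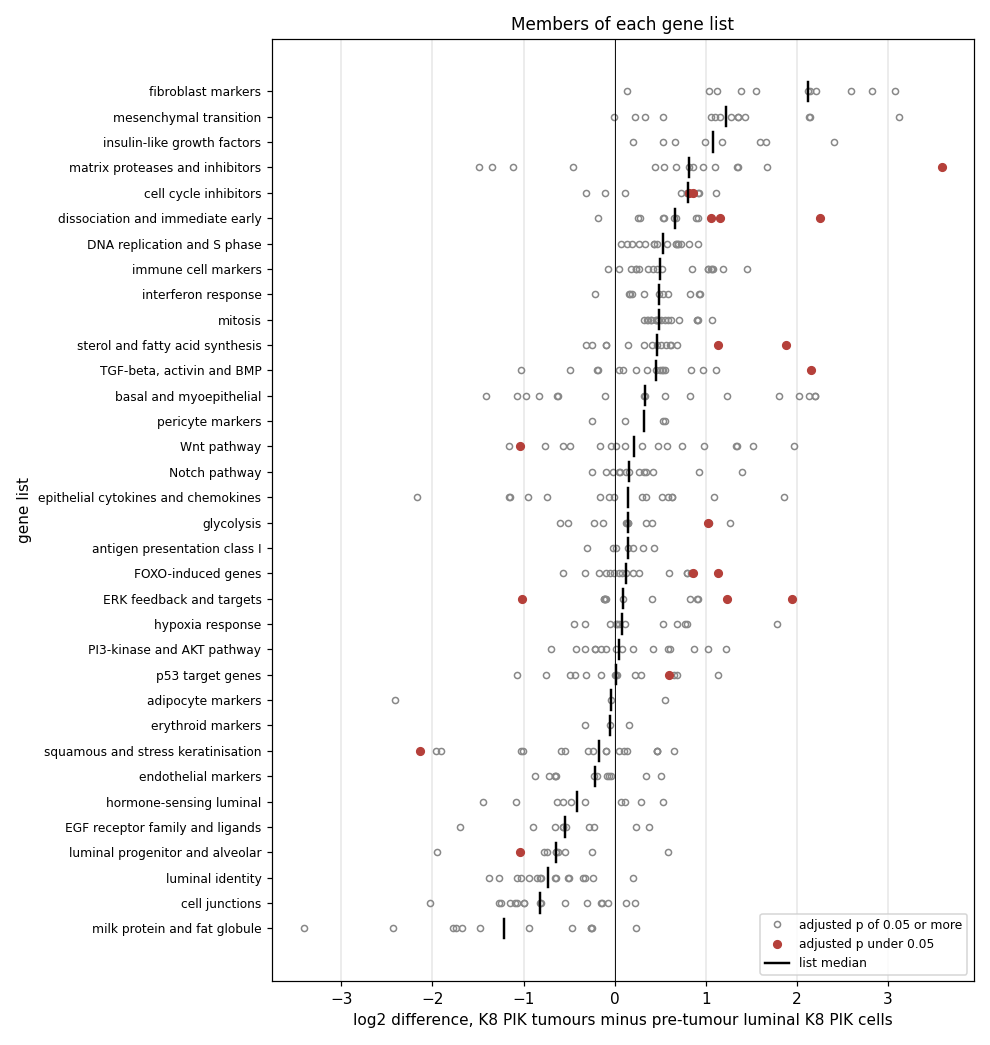
Log2 difference of each tested member (horizontal axis, K8 PIK tumours minus pre-tumour luminal cells) of 34 gene lists, ordered by their median (black bar); filled red points passed an adjusted p under 0.05. Fibroblast markers have the highest median at 2.12 with no called member, milk genes the lowest at -1.21, and no list holds more than 3 called members.

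The remaining lists held no called gene. Medians were 1.08 for 8 insulin-like growth factor genes, 0.49 for 11 interferon response genes, 0.15 for 7 class I antigen presentation genes, 0.15 for 16 epithelial cytokines, 0.16 for 13 Notch genes, -0.41 for 10 hormone-sensing genes and -0.55 for the EGF receptor family. Igfbp2, a carrier of insulin-like growth factors, ran from 5.15 to 10.21, against 5.31 and 4.82 (2.41 ± 0.93, adjusted p = 0.167). Sfrp1, a secreted Wnt inhibitor, lay at 6.05 to 8.45, against 5.35 and 5.03, without overlap (1.97 ± 0.58, adjusted p = 0.0715).

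The same tumours were set against YFP-positive cells from the basal gate of K8CREERT2/PIK3CA-H1047R/RosaYFP mice at 8 weeks, the same genotype and time as the pre-tumour luminal cells. This contrast shares the tumour arrays. It gave 1606 rises and 1465 falls in 13663 genes (22.5% called, 11.8% higher and 10.7% lower, and 34.8% at an unadjusted p under 0.05), and 427 calls in all without basal-gate replicate 1. Genes that rose against pre-tumour luminal cells had a median level of 7.32 in the tumours, 5.89 in pre-tumour luminal cells and 6.87 in the basal-gate cells. Col5a2, Sema5a, Vcan, Mgp and Eln each differed between tumours and basal-gate cells by less than 1.5 times their SE. Of the 114 rises, 34 were also called higher in tumours than in basal-gate cells, which the shared tumour arrays favour. Tgfb3 was among them (1.81 ± 0.40, adjusted p = 0.00347), as were Insig1 (1.15 ± 0.39, adjusted p = 0.0373) and Pfkl (1.22 ± 0.20, adjusted p = 0.000573). So were Elovl6 (1.99 ± 0.27, adjusted p = 0.000157), Hspa1b (1.04 ± 0.24, adjusted p = 0.00415), Cdkn2a (0.79 ± 0.18, adjusted p = 0.00403) and Bbc3 (0.55 ± 0.16, adjusted p = 0.0146). Gem, which rose against pre-tumour luminal cells, was lower in tumours than in basal-gate cells (-1.53 ± 0.50, adjusted p = 0.0338). Etv5 (0.04 ± 0.26), Boc (0.26 ± 0.37), Ak1 (-0.37 ± 0.57) and Dusp6 (-0.44 ± 0.27) were not called there. Chac1 (-3.23 ± 0.74, adjusted p = 0.00419), Trib3 (-1.63 ± 0.53, adjusted p = 0.0304), Krt16 (-2.30 ± 0.56, adjusted p = 0.00613), Itga2 (-2.18 ± 0.41, adjusted p = 0.00124) and Trmt61a (-1.94 ± 0.30, adjusted p = 0.000304) were lower in tumours than in basal-gate cells too. The differences of Klk10 (-0.58 ± 0.86, adjusted p = 0.674) and Slc5a1 (1.32 ± 0.56, adjusted p = 0.0976) did not pass.

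The step before, from normal YFP to pre-tumour luminal cells at 8 weeks, uses the same pre-tumour arrays and gave 0 rises and 4 falls (0.0293%, with 684 genes or 5.01% at an unadjusted p under 0.05, limma). None of the named genes was among the calls. Genes that rose in tumours had a median level of 6.21 in YFP luminal cells at 8 weeks, and genes that fell had 7.32 there, 7.65 in pre-tumour cells and 6.54 in tumours. Klk10 was at 9.60 and 9.93 and Col5a2 at 3.94 and 4.78 in YFP luminal cells at 8 weeks, and all 7 tumours lay below these Klk10 values. The step from YFP to pre-tumour cells was 0.44 ± 1.08 for Klk10 and -0.38 ± 1.24 for Col5a2. Krt16 was at 7.22 and 8.54 in YFP cells, below the pre-tumour cells, and within the range of the tumours. Both YFP values also lay within the tumour range for Itga2, Prnd, Fosl1, Edn1, Klk8, Myo5b and 6430548M08Rik, which fell, and for Cdkn1b and Elovl6, which rose. For every other named called gene at least 1 of the 2 YFP arrays at 8 weeks lay outside it. At 10 months both YFP luminal arrays lay within the tumour range also for Fos (11.09 and 11.28), Gem (6.90 and 6.94), Rspo1 (3.69 and 3.98) and Mmp2 (5.14 and 5.25). For Itga2, Fosl1 and Cdkn1b at least 1 of the 10-month arrays lay outside it.

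Whether the step to the tumour depended on the targeted cell was tested as an interaction: the difference of K8 PIK tumours and their pre-tumour luminal cells minus the difference of K5 PIK tumours and luminal-gate cells of K5CREERT2/PIK3CA-H1047R/RosaYFP mice at 10 months. The pre-tumour times differ between the drivers. Of 13663 genes 5 were called, all with a higher K8 difference (0.0366%, with 1400 or 10.2% at an unadjusted p under 0.05), and leaving out single arrays gave 1 to 9 calls. Prph, the neuronal filament protein peripherin, differed by 2.54 ± 0.33 (adjusted p = 0.00269). It averaged 4.95 in K8 PIK tumours and 4.30 in their pre-tumour cells, and 4.74 in K5 PIK tumours, against 6.63 in the K5-targeted luminal-gate cells. The K5-targeted luminal-gate cells thus held the highest of the 4 means. Rasgrp2, an activator of the GTPase Rap1, differed by 1.72 ± 0.30 (adjusted p = 0.0392) and Pramel13 by 1.72 ± 0.31 (adjusted p = 0.0434). For Tgfb3, Klk10 and Chac1 the interaction was 2.13 ± 0.61, -4.03 ± 1.31 and -1.57 ± 1.11, with adjusted p of 0.197, 0.284 and 0.678.

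Ribosome biogenesis, ATF4 and NR4A and EGR genes were counted in lists chosen after values of these data were seen, so the counts describe and support nothing. Ribosome biogenesis genes, which build the subunits in the nucleolus, were lower in 55 of 57 genes tested: 18 fell and none rose (31.6% called, against 1.66% that fell and 2.5% called over all genes), with a median of -0.68. Their mean lay at 7.29 to 7.85 in the tumours, against 8.14 and 7.96 in the pre-tumour cells. Normal YFP luminal cells averaged 7.78 at 8 weeks, within the tumour range, and 7.86 at 10 months, just above it. Gar1, a core protein of RNA-modifying particles, differed by -0.86 ± 0.20 (adjusted p = 0.0345) and Wdr36, a processing factor, by -0.79 ± 0.17 (adjusted p = 0.0271), whereas Npm1, nucleophosmin, differed by 0.06 ± 0.09.

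Of 21 genes of the ATF4 and integrated stress response tested, 16 were lower and 4 fell (19.0% called, against 2.5% over all genes), with a median of -0.63. Beside Chac1 and Trib3 these were Adm2, a secreted peptide (-0.81 ± 0.20, adjusted p = 0.0365), and Jdp2, an AP-1 repressor (-1.47 ± 0.37, adjusted p = 0.0392). Asns, asparagine synthetase, a well known ATF4 target, differed by -1.09 ± 0.54 (adjusted p = 0.287). The mean of the ATF4 list lay at 7.10 to 7.61 in the tumours, against 8.09 and 8.01 in the pre-tumour cells. Normal YFP luminal cells averaged 7.67 at 8 weeks, just above the tumour range, and 7.99 at 10 months. All 7 NR4A and EGR genes tested were higher and 4 rose (57.1%, against 0.834% of all genes that rose). Nr4a3 lay at 8.06 to 9.18 in the tumours, against 6.75 and 6.26 (1.96 ± 0.28, adjusted p = 0.00474). Nr4a2 differed by 2.15 ± 0.45 (adjusted p = 0.0196) and Egr2 by 2.08 ± 0.41 (adjusted p = 0.017).

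**Figure D5:**
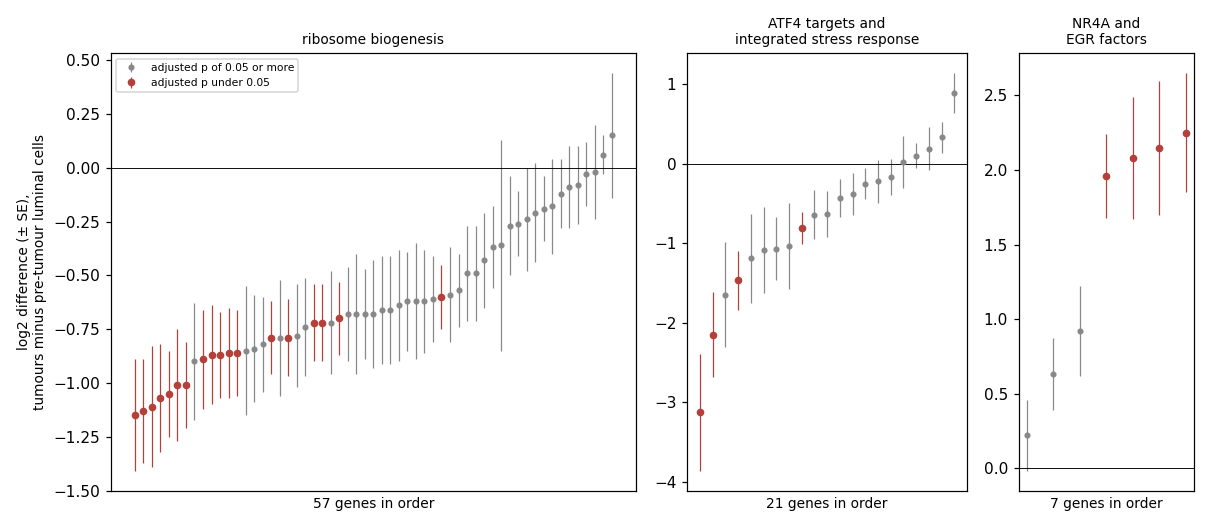
Log2 difference of each gene (K8 PIK tumours minus pre-tumour luminal cells) with its SE for 57 ribosome biogenesis genes, 21 genes of the ATF4 and integrated stress response and 7 NR4A and EGR genes. Most of the first 2 lists lie below 0, with 18 and 4 genes that fell, and all 7 of the third lie above it.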

How the data were processed

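RNA of 28 FACS-sorted mouse mammary samples was measured on Affymetrix arrays. For each of 45141 probe sets the authors gave 1 value per array, on a log2 scale. Per the submitters' processing notes R 2.14.0 was used, and the background correction and normalization are not given in the sources used here. Arrays have no read depth, and their number limits the precision. Genes were named through the platform annotation: 28898 probe sets had 1 symbol, 551 several and 15692 no entry, and 28689 were matched by gene ID to RefSeq names. The brightest probe set stood for a gene (17097 genes, 7180 with several). Genes above the 40th percentile on at least 2 arrays were tested (13663). limma 3.58.1 fitted 1 mean per group over all 28 arrays, with Benjamini-Hochberg adjustment over all genes tested and a threshold of 0.05, and was tested on simulated data. Marker means were compared by exact permutation over samples.

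Named genes were, among called genes without overlap between the groups, the 15 largest rises and 15 largest falls; up to 4 called members of each of 34 gene lists; the 3 largest changes in each direction of the interaction; and 14 genes of identity and proliferation named by a fixed choice. Other genes are list members given as examples. The groups, members and lists were chosen with earlier results of these data known. Alternatives changed the dim filter, probe choice, normalization, weights, covariates, replicate block, the arrays fitted and the arrays left out.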

Additional observations from a re-analysis of the deposited data

Results flagged for a closer look

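Among 95 genes and list means checked, 11 had 1 tumour far from the other 6, where chance gives about 1 in 20. Tumour 3 was lowest for Krt8 (10.46, next 11.56), Krt18 (9.83, next 11.12) and Elf5 (3.76, next 6.79). It was also lowest for the means of luminal identity genes (8.09, next 9.53), luminal progenitor genes (6.11, next 7.69) and cell junction genes (6.82, next 8.35). Tumour 5 was lowest for Eln (7.01, next 8.78). Tumour 7 was highest for Rspo1 (4.23, next 3.52) and for the mean of cell cycle inhibitors (6.35, next 6.23). Tumour 1 was highest for 6430548M08Rik (7.75, next 6.33) and Klk8 (7.36, next 5.97).

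Of 13663 genes tested, 5 differed between K8-targeted and K5-targeted cells in the step to the tumour, by the limma interaction. Prph differed by 2.54 ± 0.33 (adjusted p = 0.00269). Rasgrp2 differed by 1.72 ± 0.30 (adjusted p = 0.0392), with means of 3.99 in K8 PIK tumours and 3.84 in their pre-tumour cells, and 4.03 in K5 PIK tumours, against 5.60 in K5-targeted luminal-gate cells. Pramel13 differed by 1.72 ± 0.31 (adjusted p = 0.0434), with means of 4.49 and 4.01, and 4.16 against 5.40. Ucp1 (1.51 ± 0.26, adjusted p = 0.0392) and Cacng5 (1.44 ± 0.20, adjusted p = 0.00461) fall outside the naming rule and were chosen after their values were seen.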

How the results depend on the processing

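With 2 pre-tumour arrays the calls were sensitive to which arrays entered the fit. The main count of 341 was 1114 with array weights, 1215 with a replicate block, 37 with the fibroblast marker mean as a covariate, 616 with arrays centred on their medians and 0 on the compared arrays alone; leaving out 1 array gave 0 to 494. It was 325 with no dim filter, 388 with probe sets averaged, 310 with a trended robust fit, 263 after quantile normalization, 235 with the immune and 283 with the endothelial marker mean, and 391 without tumours 2 and 3 together, an alternative chosen after seeing the data. The labels do not say whether replicate numbers pair the samples. Deviations of same-numbered tumour and pre-tumour arrays correlated at -0.13 and -0.12. These values cannot settle it, since the deviations of the 2 pre-tumour arrays from their mean mirror each other. Of the 44 named called genes 34 stayed called under the block and 5 with the fibroblast covariate (Boc, Chac1, Etv5, Krt16 and Sema5a).

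Foxa1 ran from -0.68 to 0.19 on leaving out 1 array, above 0 only without tumour 1, and with the fibroblast covariate Foxa1 was at 0.00, Pgr at 0.09 and Elf5 at 0.09. That covariate also turned the list medians of PI3-kinase (-0.09), hypoxia (-0.07), ERK (-0.10), Wnt (-0.03), p53 target (-0.02) and cytokine genes (-0.59). Centring turned those of PI3-kinase (-0.06), hypoxia (-0.03), ERK (-0.02) and p53 target genes (-0.10). The basal-gate count of 3071 was 1631 on the compared arrays, 1496 without basal-gate replicate 2, 3328 with the block and 4503 with weights, with 427 to 3337 on leaving out 1 array. The 4 calls between pre-tumour and normal luminal cells became 7 on the compared arrays, 7 with probe sets averaged, 64 with weights and 3 with the block, and 2 to 8 without 1 array. The 5 interaction calls became 0 on the compared arrays (927 at an unadjusted p under 0.05, limma), 2 after quantile normalization, 6 with weights, 228 with the block and 1 to 9 without 1 array. The cause of these shifts was not tested.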

Other observations

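Gene families were counted after the values of single members were seen. Of 37 collagen genes tested 34 were higher in the tumours and 2 rose (5.41% called, against 2.5% over all genes), with a median of 0.99. Beside Col5a2 the gene that rose was Col4a2, a chain of basement membrane collagen, at 7.31 to 9.57 in the tumours, against 7.19 and 6.17 in the pre-tumour cells (2.08 ± 0.55, limma adjusted p = 0.0488). Of 13 kallikrein genes tested 5 were higher and 8 lower, with a median of -0.18, and 2 fell, Klk10 and Klk8 (15.4% called). Of 24 integrin genes tested 12 were higher and 12 lower, with a median of 0.03, and 2 fell, Itga2 and Itgb6 (8.33% called).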
